A study of Rattus norvegicus with 6 samples.

Results

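The enzymes of serine synthesis and of the folate-dependent one-carbon pathway were examined in the vestibular epithelium of rats exposed to streptomycin, an aminoglycoside antibiotic that damages hair cells (HCs). The members were chosen by gene symbol, and all 9 were found once each among the 32883 genes of the table. They were 3 serine synthesis enzymes (Phgdh, Psat1 and Psph), 4 mitochondrial folate enzymes (Mthfd2, Shmt2, Mthfd1l and Aldh1l2) and 2 cytosolic folate enzymes (Mthfd1 and Shmt1). RNA came from 6 Long-Evans rats, 3 injected under the skin with PBS alone (Control) and 3 given daily streptomycin at 500 mg/kg, as free base, in the same vehicle (STREP). Dosing began at postnatal day 21 and lasted 6 weeks, with the tissue taken on the last day. Each group held 2 males (replicates 1 and 2) and 1 female (replicate 3), and each library held the pooled utricles and cristae of a single animal, as stated in the protocol. The titles of STREP replicates 1 and 2 share a code stem that the labels do not explain, so whether these males shared a litter or cage is not known.

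Serine is made from the glycolytic intermediate 3-phosphoglycerate by PHGDH, PSAT1 and PSPH in turn. Serine hydroxymethyltransferases (SHMT2 in mitochondria, SHMT1 in the cytosol) pass a carbon from serine to tetrahydrofolate and leave glycine. In mitochondria, MTHFD2 oxidises this carbon, MTHFD1L releases it as formate, and ALDH1L2 can instead oxidise it to CO2 with production of NADPH. In the cytosol, MTHFD1 takes formate up again for the synthesis of purines, thymidylate and methyl groups. MTHFD2 is known for high expression in embryonic and dividing cells and low expression in most adult tissues, and several enzymes of both pathways are known targets of the transcription factor ATF4.

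Library totals ran from 48568191 to 59906048 counts in Control and from 29333584 to 33744909 in STREP animals, so depth separated the groups. Calls required both an adjusted p under 0.05 in DESeq2 and a change of more than 1.5-fold, up or down. All 6 hair cell markers and all 6 supporting cell markers of fixed lists were detected in the libraries. Summed normalised counts (counts divided by a size factor per library) of the HC markers ran from 71480 to 76360 in Control and from 62910 to 76550 in STREP animals. Those of the supporting cell markers ran from 360100 to 441700 and from 462400 to 769400, without overlap, most of them from Otog. DESeq2 and edgeR called 0 of the 6. Over all genes tested, DESeq2 called 1.87% higher and 1.37% lower, so a list this short would seldom hold a call. At an unadjusted p under 0.05 in DESeq2 there were 3 of the 6, all higher in STREP animals, against 12.2% of all genes in either direction. For Otog, Otogl and Jag1, but not Sox2, Lfng and Tectb, all STREP values lay above all Control values, against 9.12% of all genes.

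Mthfd2 was the member that changed most clearly. Normalised counts were 433, 350 and 435 in the Control animals, in the order of the replicates, and 2643, 2536 and 3342 in the STREP animals. Every STREP animal, male or female, stood far above every Control animal. The means were 406 ± 48.5 and 2840 ± 438 (SD, n = 3), a 6.99-fold rise, or a log2 fold change (log2FC) of 2.80 ± 0.18 (SE of the fit, DESeq2 adjusted p = 1.57e-51). Among 16250 genes tested, Mthfd2 (ENSRNOG00000010833) ranked 2 by p-value, and it ranked 2 by log2FC among the 12126 of these with a mean of at least 100 normalised counts. In whole tissue, a larger share of the cells that express a gene and more of its RNA in each cell cannot be told apart. As for the markers of dividing cells, their summed normalised counts overlapped between groups (2628 to 3076 in Control, 2935 to 3210 in STREP). Most of these sums came from Pcna and Mcm2. Of the 7 markers that were tested, 4 had positive and 3 negative log2FC values. DESeq2 and edgeR called 0 of them, where DESeq2 called 1.87% of all genes tested higher and 1.37% lower. At an unadjusted p under 0.05 in DESeq2 there were 0 of the 7, against 12.2% of all genes. In a list of 7 genes, counts of 0 lie near these shares. The part of dividing cells in the Mthfd2 result was not tested. The supporting cell sums given above were higher in STREP animals, and their part in the result was not tested.

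Of the 9 members, 2 were called higher, Mthfd2 and Aldh1l2, against 1.87% of all genes tested, and 0 were called lower by DESeq2 or edgeR, against 1.37% of all genes. An unadjusted p under 0.05 was found for 4 members, all with positive fold changes, against 12.2% of all genes in either direction. With the fold change ignored, 3 of the 9 passed the adjusted p-value, against 3.72% of all genes. All 3 STREP values lay above all 3 Control values for 4 members (Mthfd2, Aldh1l2, Psat1 and Shmt2), against 9.12% of all genes, and below them for 0 members, against 8.63%. The median log2FC was 0.32 over the 9 members and 0.0069 over all genes tested. The call of Mthfd2 was kept under every alternative that was run, while that of Aldh1l2 was not.

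The promoter of Mthfd2, the member with the clearest change, is shown beside that of Psat1, the serine synthesis enzyme that passed the adjusted p-value. Both are RefSeq windows of the rat assembly GRCr8, read 5′ to 3′ on the gene's strand, from 250 bases before to 50 bases after the transcript start that the RefSeq table uses. For Mthfd2 this start is the 5′ end of the gene record, whereas for Psat1 it lies 779 bases inside the record, so that the Psat1 window does not precede the outermost annotated start. The window of Mthfd2 lies at chr4:117380301-117380600 on the minus strand and that of Psat1 at chr1:222645359-222645658, also on the minus strand. Capitals mark CCAAT or its reverse complement ATTGG.
Mthfd2: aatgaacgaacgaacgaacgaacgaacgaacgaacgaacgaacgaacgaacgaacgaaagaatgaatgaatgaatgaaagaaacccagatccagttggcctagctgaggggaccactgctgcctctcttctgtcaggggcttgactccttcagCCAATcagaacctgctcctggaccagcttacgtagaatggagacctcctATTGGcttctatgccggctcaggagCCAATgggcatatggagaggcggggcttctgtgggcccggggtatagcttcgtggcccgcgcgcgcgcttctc
Psat1: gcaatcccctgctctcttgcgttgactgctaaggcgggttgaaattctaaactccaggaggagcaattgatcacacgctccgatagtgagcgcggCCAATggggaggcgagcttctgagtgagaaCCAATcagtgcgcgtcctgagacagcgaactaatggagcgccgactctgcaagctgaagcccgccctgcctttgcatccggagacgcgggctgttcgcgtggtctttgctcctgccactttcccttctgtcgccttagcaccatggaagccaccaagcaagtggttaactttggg

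CCAAT, searched on both strands, was found 3 times in the Mthfd2 window, starting 97, 48 and 23 bases before the annotated start, and 2 times in the Psat1 window. At least 1 match was present in 4 of the 7 members with a window (Phgdh, Psat1, Mthfd2 and Shmt1) and in 37.6% of 27457 rat promoter windows of the same length, and 3 or more matches were present in 3.19% of these. TGATGNAA, the core of the composite element that ATF4 binds with C/EBP partners, was found on neither strand of the 7 windows and in 3.81% of all windows. The E-box CACGTG was found in 1 of the 7, Shmt1, with 2 matches, and in 6.59% of all windows. These counts describe letters in short windows only, and windows of Aldh1l2 and Mthfd1 were not analysed here.

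**Figure D1:**
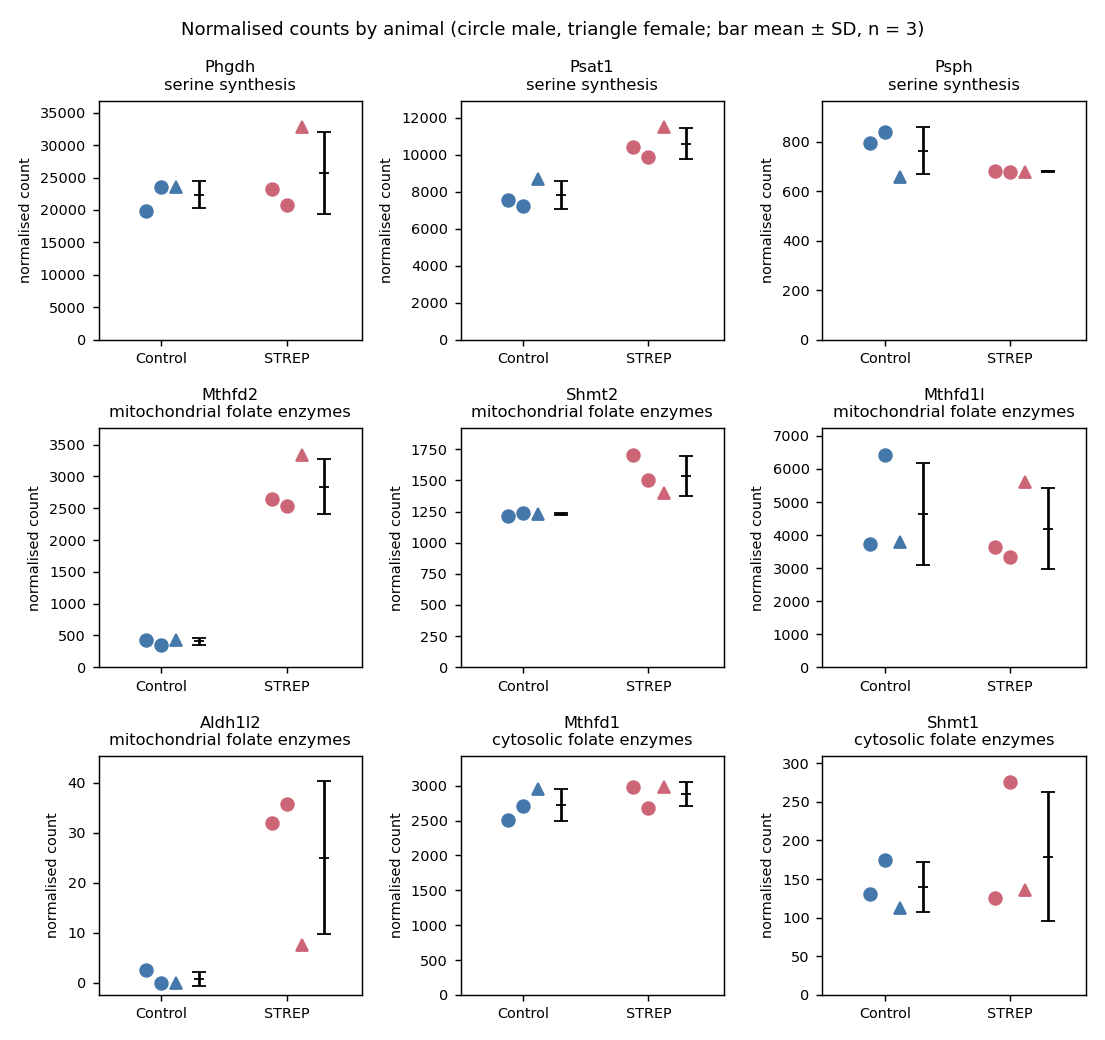
Normalised counts (vertical axes, each from 0 or just below, linear) of the 9 enzymes in 3 Control and 3 STREP animals, with circles for males, triangles for females and bars for the mean ± SD (n = 3). Mthfd2 lay between 350 and 435 in Control animals and between 2536 and 3342 in STREP animals, whereas values of Phgdh, Psph, Mthfd1l, Mthfd1 and Shmt1 overlapped between groups.

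Aldh1l2, the mitochondrial enzyme that oxidises formyl-tetrahydrofolate, was called higher from a level near the limit of detection. It had 4, 0 and 0 counts in the Control animals and 24, 33 and 5 in the STREP animals, or 0.0668, 0 and 0 against 0.818, 1.04 and 0.148 CPM (counts scaled to the library total). The 0 counts allow levels of up to 0.0618 and 0.0612 CPM, the values of 3 counts in those libraries. The groups did not overlap, but STREP replicate 3, the female, was close to Control replicate 1 with 5 against 4 counts. The log2FC was 4.80 ± 1.44 (SE, 95% interval 1.99 to 7.61, DESeq2 adjusted p = 0.0271). This call was lost with edgeR and no filter on low counts (adjusted p = 0.203), after libraries were thinned to the smallest total (DESeq2 adjusted p = 0.0512), and without Control replicate 2, Control replicate 3, STREP replicate 1 or STREP replicate 2 (DESeq2 adjusted p from 0.0878 to 0.233). Without Control replicate 1, which held all 4 of the Control counts, the log2FC was 7.31 (DESeq2 adjusted p = 0.00691), a fitted value against a group at 0 and no bound. Aldh1l1, which encodes the cytosolic counterpart, had 270, 169 and 245 normalised counts in Control and 228, 248 and 174 in STREP animals. Its log2FC was -0.07 (DESeq2 adjusted p = 0.980), and the 95% interval of -0.67 to 0.52 did not exclude a fall past 1.5-fold.

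Shmt2, which feeds the mitochondrial pathway with the carbon of serine, was not called. It had 1217, 1239 and 1232 normalised counts in Control and 1706, 1505 and 1396 in STREP animals. The Control animals were nearly identical, and every STREP value lay above them. The log2FC was 0.32 ± 0.15 (SE, 95% interval 0.03 to 0.62, DESeq2 adjusted p = 0.333), an interval that reached past the 1.5-fold threshold of 0.585. Scaled to library totals instead, the groups overlapped, with 33.1, 30.0 and 29.2 CPM in Control and 43.7, 43.8 and 27.6 CPM in STREP animals.

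Mthfd1l, which completes the mitochondrial route to formate, varied more between animals than between groups. It had 3718, 6431 and 3797 normalised counts in Control and 3631, 3343 and 5602 in STREP animals. The high values were those of Control replicate 2, a male, and STREP replicate 3, a female. The log2FC was -0.15 ± 0.25 (SE, 95% interval -0.64 to 0.34, DESeq2 adjusted p = 0.925), and it was 0.16 without Control replicate 2. The interval did not exclude a fall past 1.5-fold.

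Of the cytosolic enzymes, neither was called. Mthfd1, the trifunctional enzyme that recaptures formate, had 2505, 2717 and 2961 normalised counts in Control and 2978, 2680 and 2977 in STREP animals. Its log2FC was 0.08 ± 0.14 (SE, DESeq2 adjusted p = 0.934), and the 95% interval of -0.19 to 0.35 lay within 1.5-fold on both sides. Shmt1 had 131, 175 and 113 normalised counts in Control and 125, 275 and 136 in STREP animals. STREP replicate 2 alone was high, and without it the log2FC went from 0.36 ± 0.40 (SE, DESeq2 adjusted p = 0.845) to -0.10. The 95% interval of -0.42 to 1.14 did not exclude a rise past 1.5-fold.

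Of the serine synthesis enzymes, Psat1 was the one that passed the adjusted p-value. It had 7545, 7233 and 8699 normalised counts in Control and 10440, 9850 and 11490 in STREP animals, without overlap. The 1.35-fold difference (log2FC 0.44 ± 0.14, SE, 95% interval 0.17 to 0.70) had a DESeq2 adjusted p = 0.0367 and did not reach the fold change threshold. The adjusted p was 0.00180 in DESeq2 with sex as a covariate, 0.417 in DESeq2 with library totals as size factors and 0.202 in edgeR with a count filter. It ran from 0.0132 to 0.230 in DESeq2 with each animal left out.

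Phgdh, which catalyses the entry step, had 19910, 23550 and 23600 normalised counts in Control and 23290, 20790 and 32770 in STREP animals. The groups overlapped, and STREP replicate 3 alone stood above the rest. The same animal held the upper end of the supporting cell sums, 769400, and the part of those cells in its Phgdh value was not tested. The log2FC was 0.20 ± 0.18 (SE, 95% interval -0.16 to 0.55, DESeq2 adjusted p = 0.798), and it was -0.02 without that animal. Scaled to library totals, Phgdh did not overlap between groups, with 541, 570 and 560 CPM in Control and 596, 605 and 649 CPM in STREP animals, but it was not called with that scaling either.

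Psph, the last step of serine synthesis, had 795, 842 and 659 normalised counts in Control and 684, 680 and 678 in STREP animals. The STREP animals lay within the Control range. The log2FC was -0.17 ± 0.18 (SE, DESeq2 adjusted p = 0.838), with a 95% interval of -0.52 to 0.18 that lay within 1.5-fold. The 3 steps of serine synthesis thus gave values of 0.20, 0.44 and -0.17 on the log2 scale, none of them called.

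**Figure D2:**
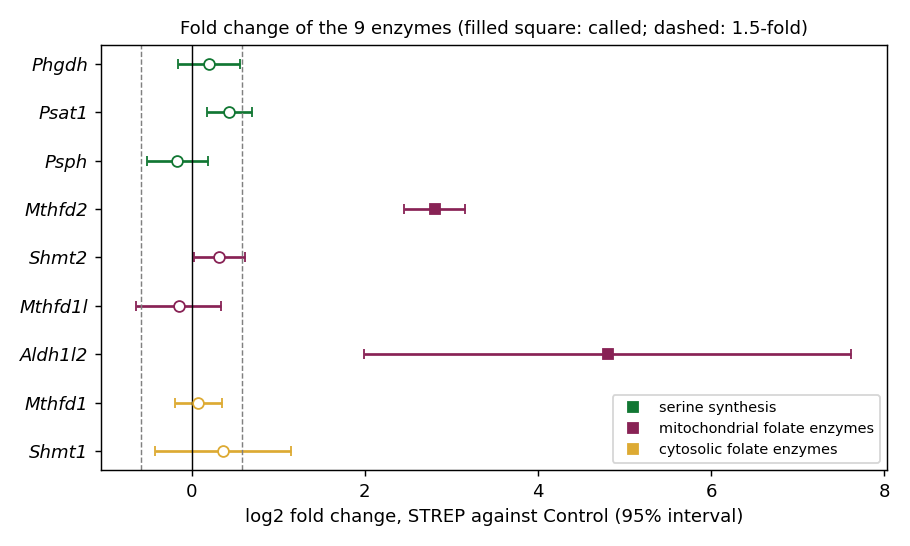
Log2FC of STREP against Control animals (horizontal axis) with the 95% interval for each of the 9 enzymes, filled squares for called genes and dashed lines at 1.5-fold. Mthfd2 (2.80) and Aldh1l2 (4.80) stood to the right of the threshold, the latter with an interval from 1.99 to 7.61, while the other 7 enzymes lay between -0.17 and 0.44.

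Mitochondrial and cytosolic enzymes were then compared within each animal, on the scale of log2(normalised count + 1) relative to the Control mean. No test was made of this score over the members. The mean over the 4 mitochondrial enzymes minus the mean over the 2 cytosolic enzymes was 0.35, -0.24 and -0.10 in the Control animals and 1.83, 1.29 and 1.45 in the STREP animals, in the order of the replicates. The STREP mean was therefore 1.52 ± 0.28 above a Control mean of 0 ± 0.31 (SD, n = 3). This difference came from Mthfd2 and Aldh1l2, since without them it was -0.09, and it was 0.81 without Aldh1l2 alone. The other mitochondrial enzymes, Shmt2 and Mthfd1l, had log2FC values of 0.32 and -0.15, beside 0.08 and 0.36 for the cytosolic Mthfd1 and Shmt1.

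Among pairs of enzymes that catalyse matching steps, only Mthfd2 with Mthfd1 separated the groups. Mthfd2 relative to Mthfd1 was 2.58, 2.67 and 2.91 in STREP animals on this log2 scale, against 0.22, -0.20 and -0.02 in Control animals. Shmt2 relative to Shmt1 was 0.60, -0.71 and 0.19 in STREP animals and 0.05, -0.34 and 0.28 in Control animals, so the STREP values spread around those of the Control animals. Mthfd1l relative to Mthfd1 was -0.44, -0.40 and 0.19 in STREP and -0.15, 0.52 and -0.36 in Control animals, again with overlap.

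**Figure D3:**
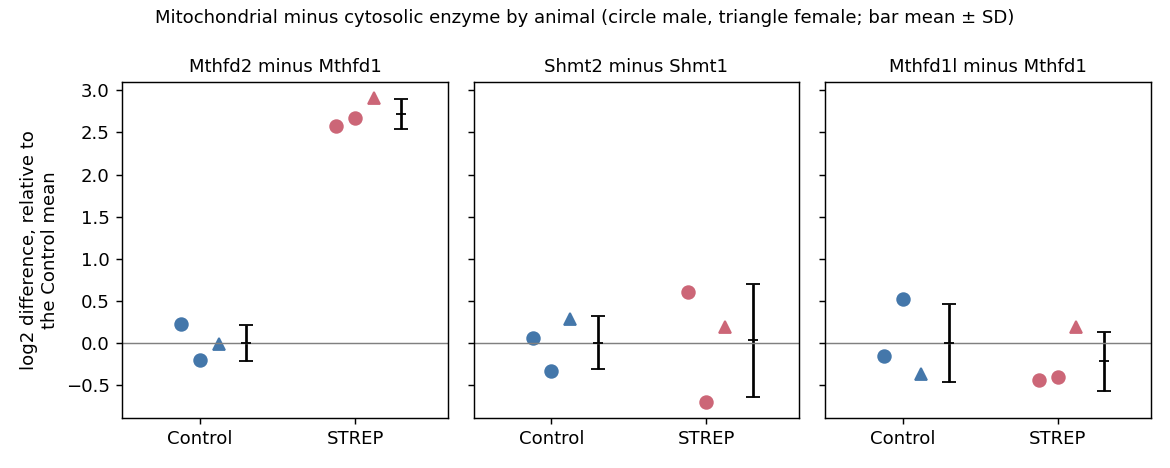
Difference in log2(normalised count + 1) between a mitochondrial and a cytosolic enzyme (vertical axis, relative to the Control mean) in each animal, with circles for males, triangles for females and bars for the mean ± SD (n = 3). For Mthfd2 minus Mthfd1 the STREP animals lay between 2.58 and 2.91 and the Control animals between -0.20 and 0.22, while for the other pairs the groups overlapped.

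Genes around these enzymes were read in the same fit. Lists of 45 other genes of the pathway held 44 that the table lists, of which 43 were tested, and 0 of these were called in either direction, against 1.87% higher and 1.37% lower over all genes. The edgeR test also called 0 of them. At an unadjusted p under 0.05 in DESeq2 there were 3 of the 43, Ggh, Eno1 and Pgk1, against 12.2% of all genes. Of the 43, 2 passed the adjusted p-value alone, Ggh and Eno1, against 3.72% of all genes. Their median log2FC was 0.06, against 0.0069 over all genes tested. Across the fits with each animal left out, between 0 and 2 of these genes were called.

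Among the 10 other folate cycle enzymes, 5 had positive and 5 negative log2FC values. Ggh, the hydrolase that shortens polyglutamated folates, had 1600, 1500 and 1580 normalised counts in Control and 1984, 2168 and 2844 in STREP animals. The groups did not overlap, and the log2FC of 0.580 ± 0.17 (SE, DESeq2 adjusted p = 0.0271) lay just under the threshold of 0.585. Mthfd2l, the mitochondrial paralogue of Mthfd2, had 97.6, 44.2 and 20.6 normalised counts in Control and 129, 98.3 and 109 in STREP animals. Control replicate 1 nearly reached the STREP animals, and the log2FC was 1.04 ± 0.56 (SE, DESeq2 adjusted p = 0.460). Without Control replicate 1 it was called. Tyms, the thymidylate synthase whose product is used for DNA, had a log2FC of -0.19 (DESeq2 adjusted p = 0.961).

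Carriers and genes of the neighbouring pathways were not called. For the 7 folate and mitochondrial serine carriers the median log2FC was 0.20. Slc25a32, which carries folate into mitochondria, had 642, 681 and 681 normalised counts in Control and 730, 712 and 977 in STREP animals (log2FC 0.27, DESeq2 adjusted p = 0.678), and Sfxn1, which carries serine into them, had a log2FC of 0.20 (DESeq2 adjusted p = 0.830). The 4 genes of the glycine cleavage system had a median of 0.07 and ran from 0.04 to 1.09 (Gldc). The 8 of the methionine cycle and transsulfuration had a median of 0.09 and ran from -2.63 (Bhmt) to 0.36. The 5 tested genes of serine and glycine breakdown had a median of -0.07 and ran from -0.33 to 0.30. Gldc and Bhmt were low, with at most 53.3 and 14.45 normalised counts in any animal. The 6 enzymes of de novo purine synthesis, 2 of which use formyl-tetrahydrofolate, ran from 0.02 to 0.16 with a median of 0.07.

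Near the branch point where serine synthesis leaves glycolysis, the 3 glycolytic genes tested had negative log2FC values, none of them called. Eno1, the enolase downstream of this point, had 40500, 45950 and 46550 normalised counts in Control and 27710, 25600 and 37540 in STREP animals. The groups did not overlap, and the log2FC of -0.55 ± 0.17 (SE) passed the adjusted p-value (DESeq2 adjusted p = 0.0300) but not the threshold. Pgk1, which makes 3-phosphoglycerate, had -0.39 (DESeq2 adjusted p = 0.0696) and Pgam1 had -0.09 (DESeq2 adjusted p = 0.945).

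**Figure D4:**
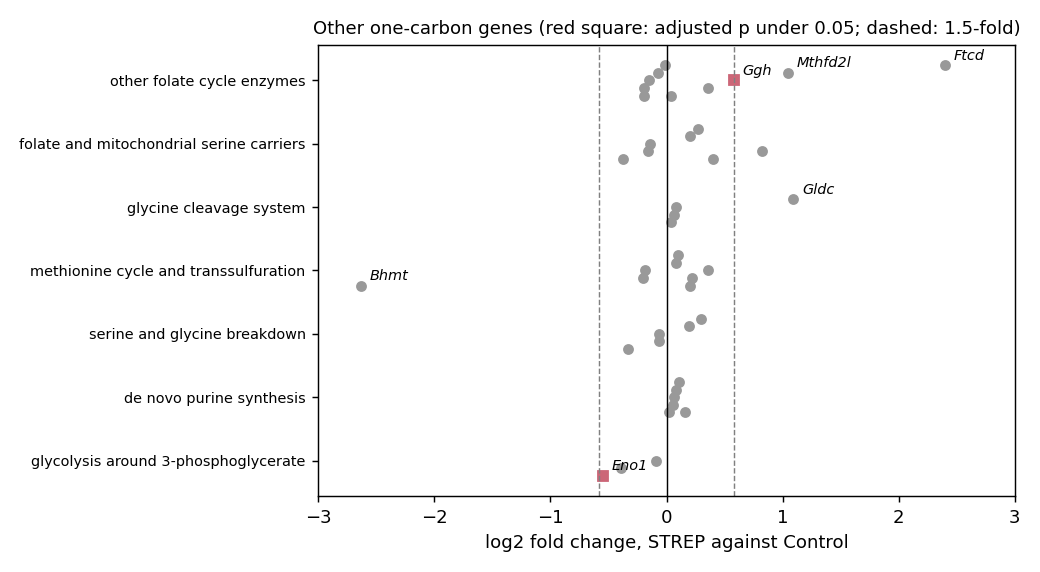
Log2FC of STREP against Control animals (horizontal axis) for the 43 tested genes around the 9 enzymes, grouped by list, with red squares for adjusted p under 0.05 and dashed lines at 1.5-fold. Ggh (0.58) and Eno1 (-0.55) passed the adjusted p-value inside the dashed lines, and the points farthest out, Ftcd and Bhmt, had at most 19.4 and 14.4 normalised counts in any animal.

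Transcription factors known to act on these enzymes were read beside them. Of 5, 3 were called higher, against 1.87% of all genes tested. The list was drawn up with earlier results of these data known, so this count is no independent result. Atf4 went from 3941, 3860 and 5299 to 6749, 7198 and 8672 normalised counts (log2FC 0.79, DESeq2 adjusted p = 0.000388). Cebpg had a log2FC of 1.68 (DESeq2 adjusted p = 1.17e-19) and Cebpb one of 5.20 (DESeq2 adjusted p = 2.27e-17). The value of Cebpb started from a low level, with 13, 1 and 6 counts in Control and 126, 182 and 114 in STREP animals. Myc (0.23, DESeq2 adjusted p = 0.913) and Nfe2l2 (0.02, DESeq2 adjusted p = 0.987) were not called. A link between these factors and the enzymes was not tested.

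The genes whose profile over the 6 animals lay nearest to that of Mthfd2 were Chac1, Ier5 and Gas1. The measure was the root mean square difference of log2(normalised count + 1) relative to the Control mean, among genes with a mean of at least 100 normalised counts. It was 0.40 for Chac1, which went from 379 ± 77.2 to 1814 ± 184 normalised counts (SD, n = 3), 0.50 for Ier5 and 0.51 for Gas1. For Aldh1l2 the nearest genes were LOC100912427 (a processed pseudogene), Gas1 and Dapk3, at 1.06, 1.14 and 1.25, so none of the genes searched followed its profile closely. Aldh1l2 itself had a mean of 12.9 normalised counts, so genes at its own level were outside the search. Dapk3 was not called (DESeq2 adjusted p = 0.203).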

How the data were processed

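RNA from the vestibular epithelium of 3 Control and 3 STREP rats was sequenced after amplification of poly(A)-primed cDNA. The authors aligned reads to the rat genome (Rnor6.0) with STAR 2.5.3a and deposited expected counts per gene from RSEM (version 1.3.0 per the labels), unscaled, for 32883 genes. All deposited values were whole numbers. Groups and sex came from the labels, replicates were numbered in order of deposition, and all libraries carry the same batch label.

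All genes were fitted in R 4.3.3 with DESeq2 1.42.0, on group alone, with size factors by the median of ratios, Wald tests, independent filtering at 0.05 and Benjamini-Hochberg adjustment over 16250 genes. Intervals are 95% Wald intervals per gene. Floors of 3 counts, between 0.0501 and 0.102 CPM, cover counting error only, since the reads carry no molecular identifiers and several can come from 1 molecule. Alternatives were edgeR 4.0.16, other scalings, filters, thresholds and subsets of animals. The procedure was also run on simulated counts, with changes planted only in genes at higher counts than Aldh1l2, so a call such as that of Aldh1l2 was not covered.

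The members and lists were chosen with earlier results of these data known. All members were named, as were listed genes and, for each called member, the 3 nearest profiles. Gene lengths were not used, so levels were not compared between genes. The promoter tables of RefSeq (GRCr8) were matched by symbol, for 7 of 9 members. The symbols Gapdh, Dct and Pecam1 matched no row. For 1 listed gene the values are not reported here.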

Additional observations from a re-analysis of the deposited data

How the results depend on the processing

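The number of members called was 2 in the main analysis and 1, Mthfd2, with either form of edgeR, library totals as size factors, a filter of 10 counts in 3 samples, males alone, thinned libraries or the fold change threshold inside the test. With each animal left out it was 1 or 2. Aldh1l2 accounted for these changes, and in both filtered fits it had too few counts to be tested. The number of other one-carbon genes called went from 0 to 1 (Eno1) with library totals or among males alone, to 2 (Ggh and Eno1) without the fold change threshold, and ran from 0 to 2 with each animal left out. The log2 fold change of Mthfd2 stayed between 2.67 and 2.88 over all fits. Of 88 values of single members under other settings, 82 kept direction and call, 5 lost the call (all of Aldh1l2) and 1 gained it (Psat1, without the fold change threshold), and of 54 with an animal left out, 47 kept both, 4 lost the call (all of Aldh1l2) and 3 changed sign. Over those omissions Phgdh ran from -0.019 to 0.32, Mthfd1l from -0.41 to 0.16 and Shmt1 from -0.10 to 0.57. The mitochondrial minus cytosolic difference of 1.52 was 1.12 with a pseudocount of 5 and ran from 1.37 to 1.69 with each animal left out. In alternatives added after the data had been seen, it was 0.81 without Aldh1l2, 1.16 without Mthfd2 and -0.094 without both. Apart from the genes that were removed, the cause was not tested. At 5 to 33 counts per STREP library, depth limits what can be said of Aldh1l2.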

Other observations

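The change under streptomycin was also read by sex, with an interaction of sex and group in DESeq2. None of the 9 enzymes had an adjusted p-value under 0.05 for this term (edgeR was not run for it), and 1 had an unadjusted p-value under 0.05. That gene was Mthfd1l, whose log2 fold change was higher in females than in males by 1.10 ± 0.40 (SE, unadjusted p = 0.00567, adjusted p = 0.440). Its males had 3718 and 6431 normalised counts in Control and 3631 and 3343 in STREP animals, and its females 3797 and 5602. With 1 female in each group, a difference between individual animals and a difference of sex cannot be told apart. For Mthfd2 the interaction was 0.22 ± 0.37 (SE, adjusted p = 0.999), with 435 normalised counts in the Control and 3342 in the STREP female.

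Among the other marker lists, DESeq2 called Prx lower (1 of 4 Schwann cell markers), against 1.37% of all genes tested. It called Gfi1 (1 of 6 HC markers) and Tubb3 (1 of 4 neuron markers) higher, against 1.87%. The edgeR test called 1 of the HC markers and 0 of the Schwann cell and neuron markers. Values of Prx overlapped between groups, with 9141 in STREP replicate 1 and 9025 in Control replicate 3 (DESeq2 adjusted p = 0.0425). The other markers of these 3 lists had negative log2 fold changes and were not called, from -0.49 to -0.13 for 5 HC markers, from -0.29 to -0.03 for 3 neuron markers and from -0.59 to -0.29 for 3 Schwann cell markers. The lowest of the 5 was Myo7a (DESeq2 adjusted p = 0.0162, under the fold change threshold), with 3 STREP values below all Control values. Of the 5 macrophage, 4 fibroblast, 3 melanocyte and 3 endothelial markers tested, 0 were called with DESeq2 or edgeR. Lists this short would seldom hold a call at the shares of 1.87% higher and 1.37% lower. At an unadjusted p under 0.05 in DESeq2 there were 1, 1, 2 and 0, against 12.2% of all genes. The summed normalised counts of the neuron, macrophage, fibroblast, melanocyte and endothelial lists overlapped between groups. Those of the Schwann cell list ran from 218200 to 300200 in Control and from 112700 to 240600 in STREP animals, with the low value in STREP replicate 2. Most of the melanocyte sum came from Pmel (log2 fold change 0.29, DESeq2 adjusted p = 0.484). Tyr and Mlana had log2 fold changes of -1.06 and -0.96 (DESeq2 adjusted p = 0.219 and 0.168).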
